A study of Mus musculus with 12 samples.

Results

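The Polycomb repressive complex 2 (PRC2) places methyl groups on lysine 27 of histone H3 (H3K27), and the enzymes UTX and KDM6B take them off. The genes described here are 9 that encode PRC2 subunits and *Kdm6b*, 10 of the 25860 genes listed, chosen by symbol, together with the ATAC-seq peaks that the authors' annotation gave to those genes, 23 of 23932. RNA-seq and ATAC-seq had been run on CD8+ progenitor cells (T_prog_) sorted from pancreatic lymph nodes. Each assay had 3 libraries of *NOD-TCR 8.3 WT* mice, the controls, and another 3 of the *NOD-TCR 8.3 UTX TCD* strain. Both are nonobese diabetic mice with a transgenic T cell receptor for a peptide of the β cell antigen IGRP, and the UTX TCD mice carry floxed *UTX* alleles (*UTX fl/fl*) with *Lck-Cre*, a recombinase driven in the T cell lineage from its early stages. In the parent *NOD-UTX TCD* line the study's controls are littermates that have the floxed alleles but no Cre, so the controls here may carry those alleles too. The age of the mice used for these libraries was not given in the sources used here, while for a cell transfer the study took such progenitors from mice of both strains at 6 weeks. The sample labels describe the sort as Ly108 positive and CXCR6 negative and the study's methods as Ly108 positive and CD39 negative. The comparison asks whether other enzymes and subunits that act on H3K27 methylation differed once UTX was deleted.

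In PRC2, EZH1 or EZH2 is the methyltransferase, EED binds methylated H3K27, SUZ12 holds the complex together, and RBBP4 binds histones. MTF2 and PHF19, of the Polycomb-like family, belong to one form of the complex, and JARID2 and AEBP2 to another. EZH2 is known as the enzyme of dividing cells, including activated T cells, and EZH1 as that of resting cells. KDM6B, also called JMJD3, is the other H3K27 demethylase of the UTX family.

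Reads counted over genes came to 146456724, 144503203 and 193568919 for the WT libraries. Those of UTX TCD came to 61512402, 175462433 and 187275082, the first being the shallowest of all. All 10 genes passed the filter of a mean normalized count of at least 10 and were among the 14459 genes tested with limma on log2(normalized count + 1). Normalized counts are reads divided by a size factor for each library. To be called, a gene had to pass an adjusted p of 0.05 (Benjamini-Hochberg) and differ by more than 0.5 in log2 fold change, taken as UTX TCD over WT. On an exact permutation test, 3 libraries against 3 allow no p below 0.10. *Kdm6a*, the gene for UTX, was measured at 28365, 28949 and 29172 in the WT libraries and 24158, 24792 and 24579 in the UTX TCD libraries. The groups did not overlap, and the log2 fold change was -0.23 ± 0.0373 (SE, limma adjusted p = 0.00114). A count over the whole gene does not separate the deleted exons from the rest, so this value checks the labels only in part.

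*Phf19* was the only member called, and *Ezh2* fell just short of the fold limit. By adjusted p alone, *Ezh2*, *Suz12* and *Phf19* were higher and *Aebp2* was lower in UTX TCD cells, and the other 6 did not pass. Of all genes tested, 17.6% were called, 10.5% higher and 7.05% lower, against 1 of the 10 members. An adjusted p under 0.05 was reached by 40.7% of all genes, 20.2% higher and 20.5% lower, against 4 of the 10 members. The groups did not overlap for 5 members, 4 higher and 1 lower, and for 51.9% of all genes, 25.8% higher and 26.1% lower. Over both directions, the members' shares were not above those of all genes. Taken alone, the higher direction held a larger share of the members by adjusted p (3 of 10) and by groups that did not overlap (4 of 10), a difference from all genes that was not tested. The median log2 fold change was 0.058 over the members and -0.00018 over all genes tested.

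**Figure D1:**
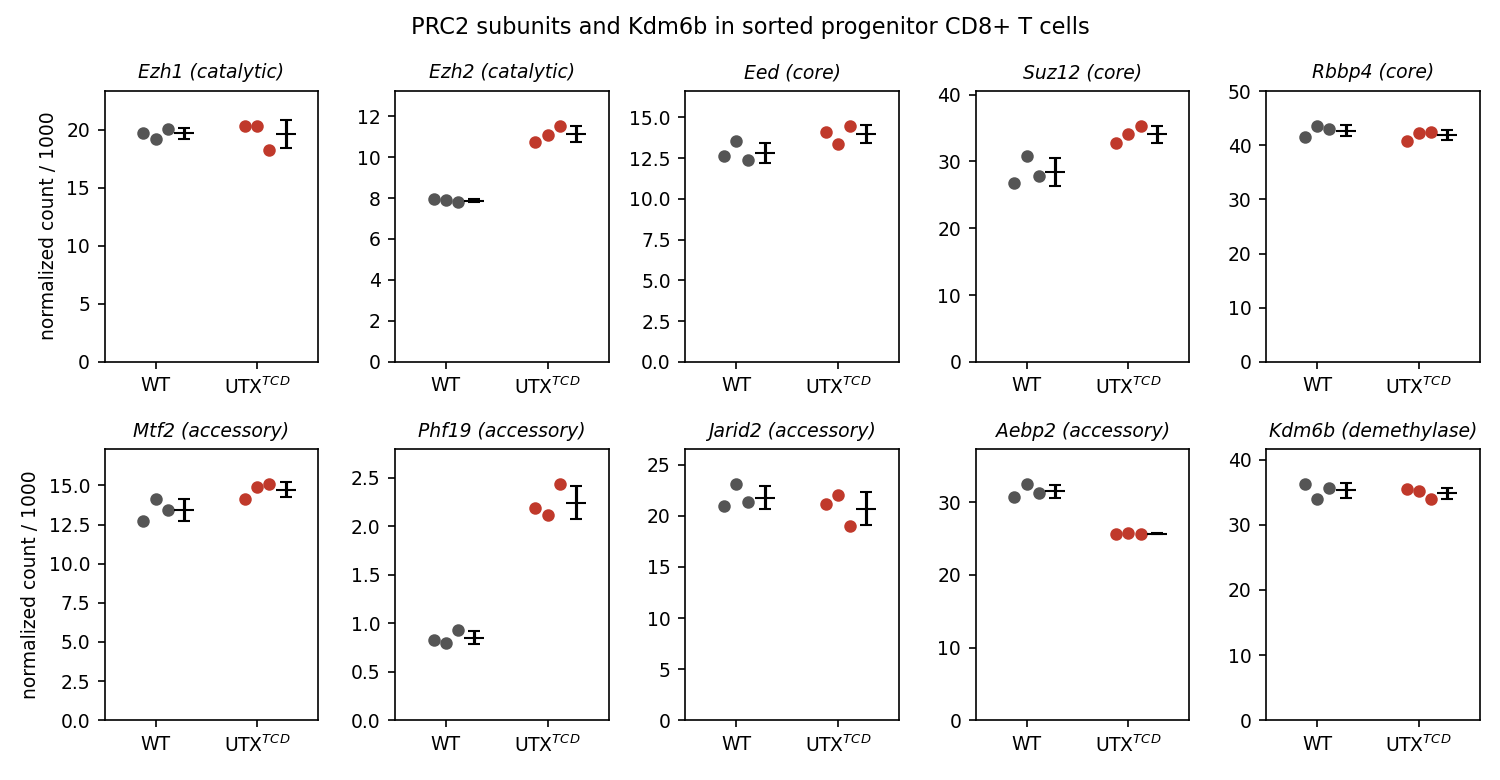
Normalized counts, divided by 1000, of the 10 members in each RNA-seq library of WT and UTX TCD T_prog_ cells, on axes that start at 0. Points are libraries, and the bar beside them is the mean with the SD (n = 3). *Phf19* and *Ezh2* sit higher and *Aebp2* lower in the UTX TCD libraries, with no overlap.

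Of the catalytic subunits, *Ezh2* (chr6:47530274-47595270, minus strand, GRCm38.p6) was measured at 7935, 7917 and 7789 in the WT libraries and 10727, 11102 and 11528 in the UTX TCD libraries. Every UTX TCD library was above every WT library, and the WT libraries lay close together. The means were 7880.1 ± 79.6 in WT and 11119 ± 400.4 in UTX TCD cells (SD, n = 3), and the log2 fold change was 0.496 ± 0.0434 (SE, limma adjusted p = 3.73e-05), with a 95% interval of 0.40 to 0.59. The interval spans the limit of 0.5, so whether *Ezh2* was called turned on small shifts. Without WT replicate 1 it was 0.501 and without UTX TCD replicate 1 it was 0.52, both called. Its exons share 62 bases with *F830010H11Rik*, a noncoding gene on the opposite strand, and the strand setting of the counting was not given, so reads of the pair cannot be told apart there.

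*Ezh1* (chr11:101191115-101226463, minus strand) was measured at 19770.2, 19217 and 20104 in the WT libraries and 20341, 20305 and 18233 in the UTX TCD libraries. The groups overlapped, with the third UTX TCD library lowest of the 6. The log2 fold change was -0.0068 ± 0.0516 (SE, limma adjusted p = 0.929), with a 95% interval of -0.12 to 0.11. Its sign was not fixed, being 0.045 without UTX TCD replicate 3. Libraries scaled to equal sums gave 0.056, a scaling that moved the median of all genes by 0.062. The log2 ratio of *Ezh1* to *Ezh2* counts was 1.32, 1.28 and 1.37 in WT and 0.92, 0.87 and 0.66 in UTX TCD libraries. The ratio was thus lower in all 3 UTX TCD libraries. The difference was -0.50 (2-sided exact permutation p = 0.10, the smallest that 3 against 3 can give).

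Among the core subunits, *Suz12* (chr11:79993106-80034123, plus strand) was measured at 26724, 30811 and 27899 in the WT libraries and 32719.6, 34079 and 35334 in the UTX TCD libraries. The groups did not overlap, but the second WT library came near the lowest UTX TCD library. The log2 fold change was 0.26 ± 0.0582 (SE, limma adjusted p = 0.00688), with a 95% interval of 0.13 to 0.39, under the fold limit. *Eed* was measured at 12617, 13531 and 12359 in the WT libraries and 14092, 13363 and 14475 in the UTX TCD libraries, and its groups overlapped. Its log2 fold change was 0.12 ± 0.0505 (SE, limma adjusted p = 0.0813). *Rbbp4* was measured at 41529.5, 43576 and 43058 in the WT libraries and 40853, 42314 and 42498 in the UTX TCD libraries. The *Rbbp4* groups overlapped as well, and the log2 fold change was -0.028 ± 0.0406 (SE, limma adjusted p = 0.616). With equal sums, which moved the median of all genes by 0.062, it was 0.034. Exons of *Rbbp4* share 2284 bases with *Sync* on the opposite strand, so its count is uncertain in the same way. *Eed* reached an adjusted p of 0.0299 (limma) without WT replicate 2, with a log2 fold change of 0.16.

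Of the accessory subunits, *Phf19* was higher and *Aebp2* lower by adjusted p, while *Mtf2* and *Jarid2* did not pass. *Phf19* (chr2:34893752-34914353, minus strand), whose protein reads methylated H3K36 and belongs to the Polycomb-like family, was measured at 823, 799.7 and 926 in the WT libraries and 2186, 2112 and 2433 in the UTX TCD libraries. Every UTX TCD library was far above every WT library. The means were 849.6 ± 67.1 in WT and 2244 ± 168 in UTX TCD cells (SD, n = 3), and the fold was 2.64, with a 95% interval of 2.30 to 3.03. The log2 fold change was 1.40 ± 0.087 (SE, limma adjusted p = 5.99e-06), and leaving out each library in turn gave 1.34 to 1.46. *Mtf2*, a Polycomb-like relative, was measured at 12726, 14144 and 13419 in the WT libraries and 14164, 14901 and 15068 in the UTX TCD libraries. Its groups were separated narrowly. The log2 fold change was 0.13 ± 0.0503 (SE, limma adjusted p = 0.0632), and without WT replicate 2 it was 0.17 (limma, adjusted p = 0.0246).

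*Aebp2* (chr6:140622454-140678472, plus strand), which encodes a zinc finger protein that stabilizes PRC2, was measured at 30705, 32470.3 and 31324 in the WT libraries and 25681, 25719 and 25614 in the UTX TCD libraries. The UTX TCD libraries were nearly equal to each other and all below the lowest WT library. The means were 31499.8 ± 896 in WT and 25671 ± 53.2 in UTX TCD cells (SD, n = 3), and the log2 fold change was -0.29 ± 0.039 (SE, limma adjusted p = 0.000407), with a 95% interval of -0.38 to -0.21. It was thus lower by adjusted p and short of the fold limit. *Jarid2*, whose product helps to recruit PRC2, was measured at 20938, 23074 and 21337 in the WT libraries and 21108, 22071 and 18958 in the UTX TCD libraries. Its groups overlapped, and the log2 fold change was -0.074 ± 0.0632 (SE, limma adjusted p = 0.384).

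*Kdm6b* (chr11:69398508-69420367, minus strand) was measured at 36213, 33987 and 35716 in the WT libraries and 35527, 35197 and 33916 in the UTX TCD libraries. The groups overlapped. The means were 35305 ± 1169 in WT and 34880.0 ± 851 in UTX TCD cells (SD, n = 3), and the log2 fold change was -0.017 ± 0.0426 (SE, limma adjusted p = 0.777). Its 95% interval, -0.11 to 0.079, bounds any difference on this scale. The log2 fold change of *Kdm6b* was 0.0028 without UTX TCD replicate 3. With equal sums, which moved the median of all genes by 0.062, it was 0.045. Exons of *Kdm6b* share 147 bases with *Gm51903*, a noncoding gene on the opposite strand. The log2 ratio of *Kdm6b* to *Kdm6a* was 0.35, 0.23 and 0.29 in WT and 0.56, 0.51 and 0.46 in UTX TCD libraries. It was higher in all 3 UTX TCD libraries, by 0.22 (2-sided exact permutation p = 0.10, the smallest possible). Of the pair, *Kdm6a*, the targeted gene, had lower counts and *Kdm6b* counts overlapped, so the ratio is no measure of a change in *Kdm6b*.

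Levels of different genes were compared per kilobase of RefSeq exon sequence, although the annotation used for counting was not given in the sources used here. The exons of all transcripts of a gene were merged, from 2060 bases for *Eed* to 16180 for *Jarid2*. Another length could change the order, and the SD holds only the spread between libraries. In WT cells *Rbbp4* was highest at 9694 ± 241 normalized counts per kilobase (SD, n = 3). It was followed by *Suz12* at 6512 ± 481 and *Eed* at 6231 ± 299, whose libraries overlapped, and by *Ezh1* at 4676 ± 106. By this length the core subunits and *Ezh1* led the order. *Kdm6b* at 3520.3 ± 117 and *Aebp2* at 3402 ± 96.7 overlapped, and *Ezh2* stood below them at 2469 ± 24.9. *Mtf2* at 2051 ± 108, *Jarid2* at 1346 ± 70.2 and *Phf19* at 206 ± 16.3 followed without overlap, with *Phf19* far below the rest. In UTX TCD cells the order differed in the middle, where *Ezh2* at 3483 ± 125 overlapped *Kdm6b* at 3478 ± 84.9 and stood above *Aebp2* at 2772 ± 5.75. *Phf19* was still lowest, at 544 ± 40.6.

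Genes of the cell cycle were higher in UTX TCD cells along with *Ezh2* and *Phf19*. Of a list of 22, all were tested and 16 were called higher, against 10.5% of all genes tested. By adjusted p, 20 were higher, against 20.2% of all genes tested, and the median log2 fold change was 0.80. *Ccne1*, the exception by adjusted p, was lower at -0.31 ± 0.0652 (SE, limma adjusted p = 0.00498), and *Pcna* did not pass, at -0.051 ± 0.0391 (SE, limma adjusted p = 0.336). *Mki67*, a marker of dividing cells, was measured at 13571, 14836 and 13395 in the WT libraries and 27436, 26909.6 and 34778 in the UTX TCD libraries. *E2f1*, a transcription factor of the G1/S transition, was measured at 414, 540.0 and 512 in the WT libraries and 1341, 1566 and 1482 in the UTX TCD libraries. The difference in log2 was 1.59 ± 0.118 (SE, limma adjusted p = 1.55e-05). For both genes the groups were far apart. The other genes called were *Top2a*, *Cdk1*, *Ccnb1*, *Ccnb2*, *Ccna2*, *Ccne2*, *Aurkb*, *Birc5*, *Bub1*, *Plk1*, *Mcm2*, *Mcm4*, *Rrm2* and *Tyms*, with log2 fold changes of 0.51 (*Mcm4*) to 1.19 (*Top2a*). The *Mcm4* call was lost without WT replicate 1 or UTX TCD replicate 3, or with reads drawn down to the smallest library (an alternative chosen after seeing the data), at 0.49 each. *Ccnb2*, at 0.55, kept its call under the other alternatives, but of the 6 runs with a library left out it was called only in the one without UTX TCD replicate 1. Without UTX TCD replicate 3 its log2 fold change fell to 0.32 (limma, adjusted p = 0.0332), and in the other 4 losses it stayed at 0.54 to 0.60 with an adjusted p (limma) of up to 0.0807, without WT replicate 2. The summed normalized counts of the list were 133691, 145969 and 137599 in WT and 195083, 201595 and 217228 in UTX TCD, so every UTX TCD library was above every WT library. The part of cell division in the higher *Ezh2*, *Suz12* and *Phf19* counts was not tested, and in bulk RNA more cells of a kind cannot be told apart from more RNA per cell.

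The promoters of the members were searched for the letters TTTNNCGC on both strands, a form of the E2F motif chosen after the expression values were seen. RefSeq promoter sequences of 300 bases matched 9 of the 10 members, and *Kdm6b* had no entry. The letters occurred in the promoters of *Ezh2* (1 match), *Phf19* (2) and *Suz12* (1), the 3 members that were higher by adjusted p, and in none of those of the other 6. They occurred in 5.17% of all 32851 promoters, in 9.6% of 10655 tested genes with an entry, and in 6 of 18 cell cycle genes with an entry. A match is a description of the letters, not a binding site or a cause. The letters were chosen with the values known, so the split of the members is not a test. Other forms of the motif were not searched and could match other members. The 3 promoters are printed to show where the letters lie, 5′ to 3′ on the strand of the gene, with the matches in capitals. They cover chr6:47594981-47595280 (minus), chr2:34913927-34914226 (minus) and chr11:79992856-79993155 (plus) of GRCm38.p6, and no listed peak of the ATAC-seq comparison was assigned to any of these genes.
Ezh2: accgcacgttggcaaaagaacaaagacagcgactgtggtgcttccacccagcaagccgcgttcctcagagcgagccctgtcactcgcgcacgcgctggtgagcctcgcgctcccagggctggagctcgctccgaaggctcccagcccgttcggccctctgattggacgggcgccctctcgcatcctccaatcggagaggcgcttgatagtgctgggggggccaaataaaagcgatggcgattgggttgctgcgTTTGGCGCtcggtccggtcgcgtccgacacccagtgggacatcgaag
Phf19: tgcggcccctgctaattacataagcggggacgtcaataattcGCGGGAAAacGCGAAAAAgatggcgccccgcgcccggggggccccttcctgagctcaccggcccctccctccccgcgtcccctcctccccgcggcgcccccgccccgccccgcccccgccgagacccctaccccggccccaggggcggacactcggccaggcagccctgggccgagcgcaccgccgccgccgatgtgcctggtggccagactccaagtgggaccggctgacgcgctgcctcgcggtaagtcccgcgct
Suz12: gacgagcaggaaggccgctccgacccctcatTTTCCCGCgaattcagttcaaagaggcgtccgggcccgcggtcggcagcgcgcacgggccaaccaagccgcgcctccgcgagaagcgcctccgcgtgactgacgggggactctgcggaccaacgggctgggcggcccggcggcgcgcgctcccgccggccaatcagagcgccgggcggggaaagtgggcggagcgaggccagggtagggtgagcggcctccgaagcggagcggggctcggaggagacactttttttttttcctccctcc

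Further genes of the Polycomb system were read from lists. Of 7 other PRC2 genes, 5 were tested and 1 was called, against 17.6% of all genes tested. It was *Epop*, whose product links PRC2 to elongin, at 0.53 ± 0.0873 (SE, limma adjusted p = 0.00137). Its call was lost without WT replicate 1 (0.47) or UTX TCD replicate 3 (0.48), or with reads drawn down (0.48). By adjusted p alone *Lcor* was higher, at 0.20 ± 0.0588 (SE, limma adjusted p = 0.0239), and *Phf1*, the third Polycomb-like gene, was lower, at -0.18 ± 0.0492 (SE, limma adjusted p = 0.0183). *Lcor* no longer passed without WT replicate 3 (limma, adjusted p = 0.0832), UTX TCD replicate 1 (0.0737) or UTX TCD replicate 2 (0.101), or with reads drawn down (0.0636). *Phf1* no longer passed without WT replicate 1 (limma, adjusted p = 0.0605) or WT replicate 3 (0.0688), or with equal sums (0.0524). *Ezhip* had at most 1 read in any library, and the symbol *AU022751* was not found. Of 25 genes of PRC1, which ubiquitylates histone H2A, *Cbx6* was called higher and *Pcgf2* and *Auts2* lower, 3 of 25 against 17.6% of all genes tested. By adjusted p alone 4 were higher and 6 lower, against 20.2% and 20.5% of all genes tested, and the median was 0.014. Their log2 fold changes were 0.51 ± 0.0571 (SE, limma adjusted p = 0.000156) for *Cbx6*, -0.59 ± 0.134 (SE, limma adjusted p = 0.00734) for *Pcgf2* and -0.59 ± 0.142 (SE, limma adjusted p = 0.00937) for *Auts2*. *Cbx6* fell under the limit without WT replicate 1 (0.46) or UTX TCD replicate 2 (0.47), and *Pcgf2* without UTX TCD replicate 2 (-0.498).

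Of 10 genes of PR-DUB, which removes ubiquitin from H2A, 9 were tested and 0 were called by limma, edgeR or DESeq2. By adjusted p alone (limma) 4 were higher and 1 lower, against 20.2% and 20.5% of all genes tested, and 6 of the 9 had an unadjusted p under 0.05, as did 7097 of all 14459 genes. *Ogt*, an enzyme that binds the complex, was at 0.39 ± 0.0442 (SE, limma adjusted p = 0.000157) and *Mbd6* at 0.24 ± 0.0465 (SE, limma adjusted p = 0.00353). Of the H3K27 demethylase list, *Kdm7a*, which removes methyl groups from H3K9 and H3K27, was measured at 39606, 40357 and 39808 in the WT libraries and 26003, 26836 and 27864 in the UTX TCD libraries. It was lower in every UTX TCD library than in any WT library, by a log2 fold change of -0.57 ± 0.041 (SE, limma adjusted p = 1.32e-05). *Uty*, the Y-linked relative of *Kdm6a*, had at most 1 read in any library, and the study states that it included only females.

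Of 12 genes known as PRC2 targets, 8 were tested, 3 were called, all higher, against 10.5% of all genes tested, and the median was 0.37. *Cdkn1a*, which encodes the cell cycle inhibitor p21, was measured at 29.7, 45.4 and 29.7 in the WT libraries and 403, 305 and 435 in the UTX TCD libraries, a log2 fold change of 3.42 ± 0.232 (SE, limma adjusted p = 9.19e-06). *Tbx21* was at 1.16 ± 0.163 (SE, limma adjusted p = 0.00057) and *Eomes* at 0.62 ± 0.124 (SE, limma adjusted p = 0.00388), 2 T-box factors of effector and memory T cells. *Eomes* lost its call without UTX TCD replicate 3, at 0.46. *Cdkn2a* and *Cdkn2b*, classic targets of PRC2, had at most 3 reads in every library, so no fold is given. H3K27 methylation itself was not measured in the data used here.

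**Figure D2:**
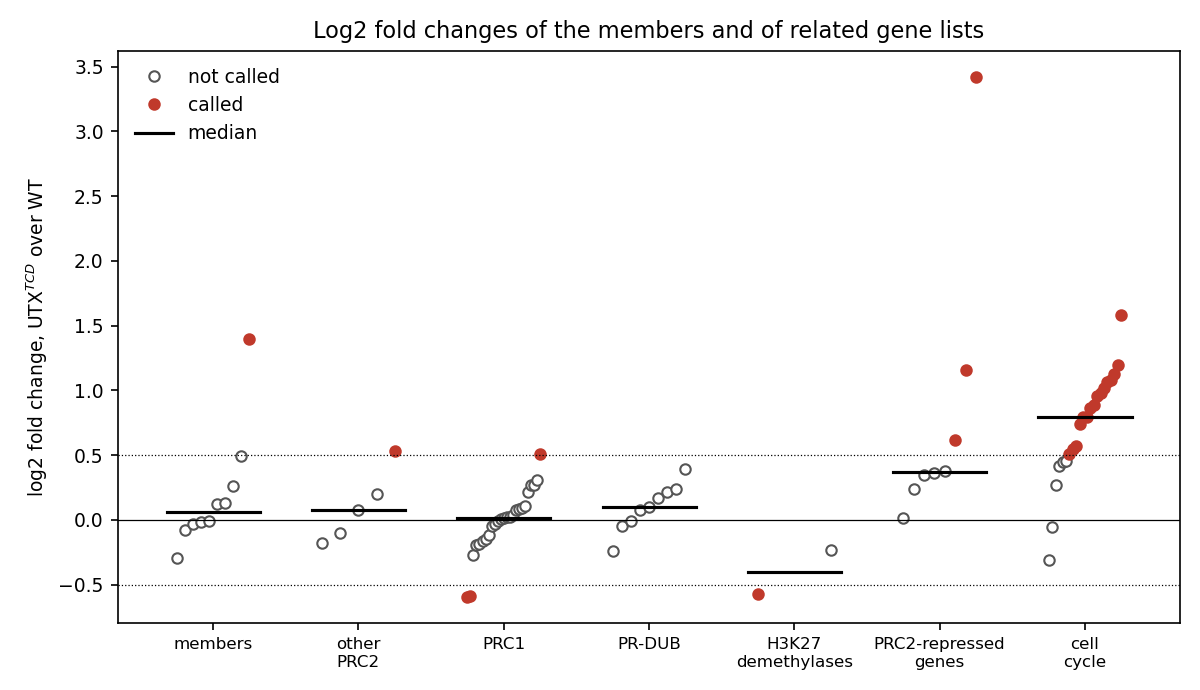
Log2 fold change (UTX TCD over WT) of each tested gene of the members and 6 related lists, with filled points for genes called and open points for the rest. Horizontal bars are medians and dotted lines the fold limit of 0.5. The cell cycle list lies mostly above the limit, and the PRC1 list centers near 0.

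ATAC-seq finds open chromatin by transposase insertion. Only the authors' mean log2 signal per genotype was used, with no SD or n, and every listed peak had passed an FDR under 0.05 in their comparison. Differences given here are UTX TCD minus WT of those means, with no test. Of the 23 peaks, 9 were higher and 14 lower, whereas 31.2% of all listed peaks were lower. Of the 14 lower peaks, 12 were assigned to *Aebp2*, so this balance rests mostly on that gene and is not a trait of the members. The 23 peaks belonged to 4 members, *Aebp2* with 14, *Jarid2* with 7, *Ezh1* with 1 and *Kdm6b* with 1, and 47.6% of all genes tested had at least 1 listed peak. No listed peak was assigned to *Ezh2*, *Eed*, *Suz12*, *Mtf2*, *Phf19* or *Rbbp4*, and 0 of the 23 were annotated at a promoter, against 11.0% of all listed peaks. A peak absent from the list was not called by the authors, which does not show that its signal was equal.

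At *Aebp2*, the member with lower RNA, 12 of 14 peaks were lower and 2 were higher. The largest drop was at chr6:140543055-140543455, in intron 10 of 30 of the neighboring gene *Plekha5* (mm10), where the authors' mean log2 signal was 9.54 in WT and 7.49 in UTX TCD cells, a difference of -2.05. Next came chr6:140701449-140701849, an intergenic peak downstream of *Aebp2*, at 6.32 and 4.67, and chr6:140576176-140576576, in intron 21 of 30 of *Plekha5*, at 7.15 and 5.54. The higher peaks differed by 0.32 and 0.36, less than most of the lower ones. Of the 14, 6 were annotated in introns of *Plekha5*, 3 in introns of *Aebp2* and 5 as intergenic, of which 1 still lay within the RefSeq span of *Plekha5*. Peaks were assigned by nearest promoter, so a peak given to *Aebp2* need not act on it. *Plekha5* RNA was measured at 11093, 10732 and 10651 in the WT libraries and 11382, 11083 and 10082 in the UTX TCD libraries, with overlapping groups and a log2 fold change of 0.0015 (limma, adjusted p = 0.985).

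**Figure D3:**
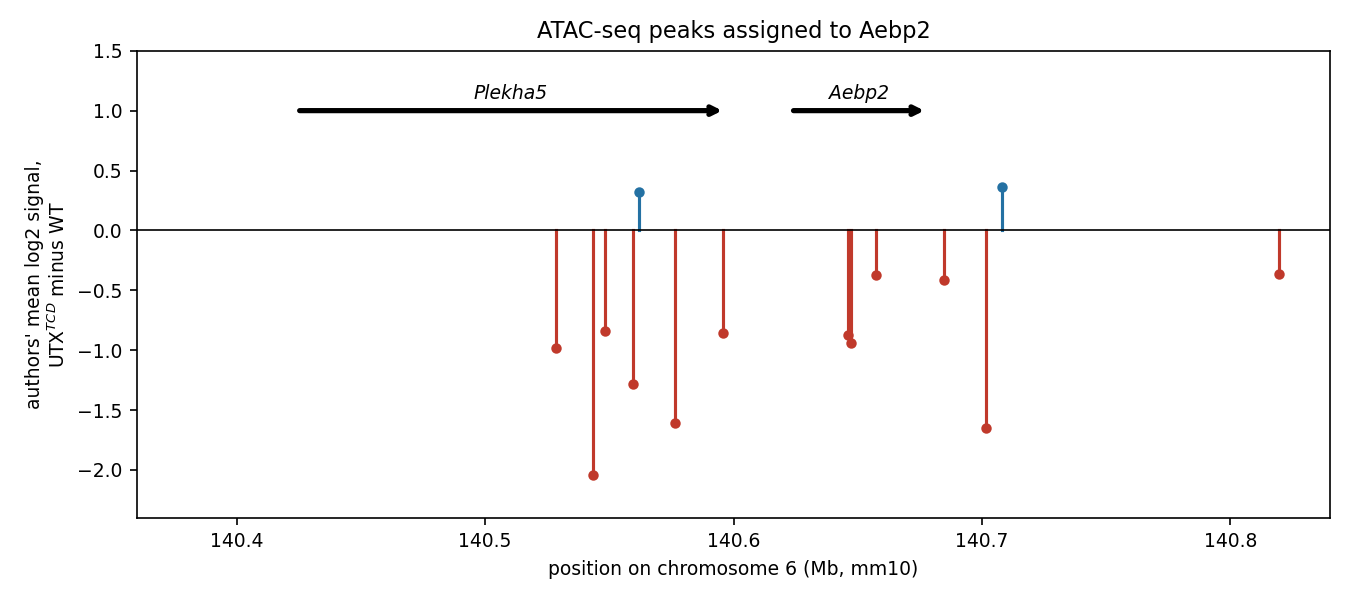
Peaks assigned to *Aebp2* along chromosome 6 (mm10), each drawn as the authors' mean log2 signal in UTX TCD minus that in WT cells, without error bars because no values per library were used. Arrows are the *Plekha5* and *Aebp2* genes in their direction of transcription. Of 14 peaks, 12 lie below 0.

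*Jarid2* had 6 peaks higher and 1 lower, the direction of most listed peaks (68.8% higher), while its RNA did not pass the test. The largest gain was at chr13:44674061-44674461, an intergenic peak upstream of the gene, with authors' means of 7.53 in WT and 8.81 in UTX TCD cells. A second upstream peak, chr13:44692966-44693366, was at 6.43 and 7.42, and the lower peak, chr13:44758758-44759158 in intron 2 of 18, was at 7.87 and 7.51. The *Ezh1* peak, chr11:101218662-101219062 in intron 1 of 20, was higher, at 10.25 and 10.90. Within the *Ezh1* gene lay 3 more listed peaks that were assigned to *Cntnap1*, and all 3 were higher, by 0.92 to 1.00, without a difference in *Ezh1* RNA that passed the test. The *Kdm6b* peak, chr11:69418726-69419126, was annotated as intergenic but lay within the RefSeq span of *Kdm6b*, and it was lower, at 11.20 and 10.86.

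The middle 300 bases of each peak were searched on both strands for 3 sets of letters, also chosen after the data were seen. CTTTGA, of the TCF/LEF motif, occurred in 7 of the 23 peaks and in 25.1% of all listed peaks. TTCNNNGAA, of the STAT motif, occurred in 4 of the 23 and in 8.82% of all, and TGANTCA, of the AP-1 motif, in 0 of the 23 and in 10.3% of all. With 23 peaks at 4 genes, many of them neighbors, these counts are descriptions only.

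Markers of the sorted cells and of other cells were read in the same libraries. *Cd8a* was the most abundant of 5 CD8 T cell genes, at 272448, 270012 and 274004 in the WT libraries and 311527, 312999.9 and 270975 in the UTX TCD libraries, with overlapping groups. None of the 5 was called, and their median log2 fold change was -0.26. By adjusted p alone *Cd8b1*, *Cd3d* and *Cd3g* were lower, at -0.37, -0.28 and -0.26, also with any library left out, and *Cd3e* was higher, at 0.17 (limma, adjusted p = 0.0414), which held under the other alternatives but, when a library was left out, only without UTX TCD replicate 3. *Slamf6*, which encodes the sort marker Ly108, and *Tcf7*, which encodes the nuclear factor TCF1 of progenitor cells, were high in all 6 libraries and did not pass the test, although the adjusted p of *Slamf6* ranged from 0.00923 to 0.256 (limma) with a library left out. *Cd44*, a marker of T cells that have met antigen, was higher by adjusted p alone, at 0.17 (limma, adjusted p = 0.0322), which held only without UTX TCD replicate 2 when a library was left out (0.0529 to 0.102 for the rest). *Entpd1* (CD39) was at 4.42 to 29.6. *Cxcr6* was measured at 12757, 9619 and 13724 in the WT libraries and 5286, 5994 and 5695 in the UTX TCD libraries, so RNA of this sort marker was present in both genotypes and lower in UTX TCD cells. Among B cell genes, *Cd79b*, the most abundant, was measured at 2502.2, 1930.1 and 2464.8 in the WT libraries and 647.8, 632.6 and 469.6 in the UTX TCD libraries, and was called lower at -1.98 ± 0.145 (SE, limma adjusted p = 1.47e-05). *Pax5* was at 0 to 11.1, and *Ms4a1*, at 5.94 to 73.0, was called higher (limma adjusted p = 0.0367). The *Ms4a1* call was lost without WT replicate 1 (0.119), WT replicate 3 (0.0894), UTX TCD replicate 2 (0.0682) or UTX TCD replicate 3 (0.112). Summed counts of the 3 CD4 T cell genes, led by *Foxp3*, were 449.7, 378 and 404 in WT and 382, 364 and 346 in UTX TCD. *Cd4*, at 41.3 to 104, was called lower (limma adjusted p = 0.0384), a call kept under 7 of 16 alternatives, edgeR (0.0433) among them. It was lost with any library but UTX TCD replicate 2 left out (0.0619 to 0.101), with equal sums (0.0543) or no filter (0.0673), drawn down (0.0512), and by DESeq2 (0.0573). Also called lower was the myeloid gene *Csf1r*, at 4.50 to 27.7. Summed counts of the 5 myeloid genes, led by *Lyz2*, were at most 130.3, of the 3 dendritic cell genes, led by *Zbtb46*, at most 79.6, of the 2 NK cell genes, led by *Klrb1c*, at most 55.3, and of the 3 erythroid genes, led by *Alas2*, at most 299.3. Defining markers of other cells were thus low next to *Cd8a*. In the WT libraries, though, *Cd79b* was above *Phf19*, which was at 799.7 to 926 there. The part of the *Cd79b* difference in the results was not tested.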

How the data were processed

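RNA-seq and ATAC-seq were examined for 3 libraries per genotype. The study calls them biological replicates for ATAC-seq and gives only their number for RNA-seq, so p-values measure the spread between libraries. For RNA-seq the authors aligned reads with HISAT2 2.2.1 to mm10, obtained gene counts with featureCounts and size factors with DESeq2. The deposited signal per gene was the count divided by a size factor for each library. For ATAC-seq the authors used Bowtie2, MACS2, DiffBind and HOMER, and the deposited log2 values were mean concentrations per genotype. The authors' own fold changes, standard errors, p-values, FDR and overall concentration stand in the same files and were not used, except that the FDR column was read to see that every listed peak was under 0.05. Whether reads were shifted for the transposase was not given in the sources used here.

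Whole reads were recovered from the steps of the values, and 100% came out whole within 0.05 of a read. The step of WT replicate 1, 0.991, lies so near 1 that its recovery is less sure. That of WT replicate 2, 0.987, lies nearly as near. limma 3.58.1 (eBayes with trend, R 4.3.3) was fitted on log2(normalized count + 1), which understates changes of low genes, with genotype as the only term. limma called 2538 genes. On the recovered reads, count tests called 2541 genes with edgeR 4.0.16 and 2422 with DESeq2 1.42.0, as alternatives. The scripts were tested on simulated data. Gene positions, exons and promoters came from RefSeq, GRCm38.p6, the same build as mm10.

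The members and lists were chosen with earlier results of these data known. Named genes were the members and *Kdm6a*, every called gene of each list or, with fewer than 2 called, the 2 with the largest change, the sort markers with *Tcf7* and *Cd44*, and the most abundant marker of each other cell type. *Ccne1*, *Pcna*, *Cdkn2a*, *Cdkn2b*, *Ezhip*, *Uty*, *Plekha5*, *Phf1*, the CD8 T cell genes other than *Cd8a*, *Cd4*, *Csf1r* and further B cell genes were added after their values were seen. A marker gene of the lists is not reported here, nor is a sum that includes it. The alternatives covered the pseudocount, filter, scaling, test, replicate block, fold limit, peak limits and each library left out.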

Additional observations from a re-analysis of the deposited data

How the results depend on the processing

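The *Phf19* call held under every alternative run, and *Suz12* and *Aebp2* kept their direction in each. The count of 2538 genes called became 5887 with no limit on the fold change and ranged from 2162 to 2572 with a library left out. The count of members called was 1 and became 2, by *Ezh2*, with equal sums, with reads drawn down to the smallest library (chosen after seeing the data), and without WT replicate 1 or UTX TCD replicate 1 (range 1 to 2 with a library left out), and 4 with no fold limit. The log2 fold change of *Ezh2* was 0.56 with equal sums and 0.503 drawn down, and 0.47 to 0.52 with a library left out. With equal sums *Eed* and *Mtf2* also passed the adjusted p (limma, 0.0311 and 0.0178). Equal sums moved the median of all genes by 0.062.

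The sign turned for 3 members near 0. With equal sums, *Ezh1* was 0.056, *Kdm6b* 0.045 and *Rbbp4* 0.034, and *Ezh1* was 0.0055 drawn down. With a library left out, *Ezh1* ranged from -0.034 to 0.045 and *Kdm6b* from -0.044 to 0.0028. Equal sums rescales whole libraries and so moved all genes about alike, and the cause of the other turns was not tested.

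Of the 23 peaks, 16 differed by more than 0.5, the size limit that the study set for differential accessibility. Among those that did not were the *Kdm6b* peak, the lower *Jarid2* peak and both higher *Aebp2* peaks. Of the 23, 0 lay within 1 kb of the start site and 9 within 50 kb. Whatever their assignment, 12 listed peaks lay inside a member gene or within 5 kb (chosen after seeing the data).

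With the replicate number as a block (replicate block), 2474 genes and 1 member were called, and no call of a member changed, while *Mtf2* passed the adjusted p (limma, 0.0440). Deviations of same-numbered libraries correlated at -0.200 to 0.305, and those of libraries with different numbers at -0.324 to 0.294. With 3 libraries per genotype, these values cannot decide whether the numbers pair the libraries. The ATAC-seq means allow no replicate check.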
